A study of Petromyzon marinus with 12 samples.

Results

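The DNA replication machinery of the sea lamprey (Petromyzon marinus) embryo was represented by 59 gene models out of the 22407 in the count table. They were chosen by name: every model whose symbol matched a fixed pattern of replication genes was taken, covering origin recognition, the MCM helicase and its loaders, the GINS proteins, the replicative DNA polymerases, the sliding clamp and its loader, the single-strand binding protein RPA, Okazaki fragment enzymes, fork protection proteins, nucleotide enzymes and chromatin assembly. The 59 models carried 55 symbols, since CDC45, MCM7, POLA1 and RPA1 were each the name of 2 models. By role, 15 models belonged to origin licensing, 9 to helicase activation, 13 to the polymerases, 10 to the clamp, its loader and RPA, 2 to Okazaki fragments, 3 to fork protection, 3 to nucleotide supply and 1 to chromatin assembly, and 3 more (MCM8, MCM9 and MCM3AP) matched the pattern without being subunits of the replicative helicase. Names are those of the deposited annotation, which gives each of these models a percent identity to a matched protein. It ran from 31.9% (DBF4) to 87.4% (PCNA), and was low for GMNN (34.0%), CLSPN (36.2%) and MCM10 (39.2%) also. The roles given here are those worked out in yeast and human cells.

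RNA was sequenced from whole embryos in 6 groups of 2 pools, each pool holding about 100 embryos: wildtype, KMT1 knockout and KMT5A knockout, at day 2 and at day 3. Embryos were reared at 18 °C, and knockout embryos had received Cas9 protein, guide RNAs and a fluorescent dextran by injection, with a screen for the dye at 24 hours after fertilization. Injection of the wildtype embryos, the share of edited alleles and the matings behind each pool are not stated in the labels. The p-values therefore measure the spread between these pools. If wildtype embryos were not injected, injection and the dye screen cannot be told apart from the knockout. A knockout effect below means the difference of knockout from wildtype pools, whatever its source. KMT5A places a methyl group on histone H4, and KMT1 is a name used for the SUV39H enzymes that methylate histone H3. The series concerns embryos that undergo programmed DNA elimination.

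Replication starts at origins that are licensed before S phase. The origin recognition complex, CDC6 and CDT1 load the ring of MCM2 to MCM7 onto DNA, and geminin (GMNN) binds CDT1 and blocks further loading once S phase has begun. The kinase pair CDC7 and DBF4, with CDC45, GINS and MCM10, turns the loaded ring into an active helicase. Polymerases alpha, delta and epsilon then copy the strands behind it, with PCNA as the clamp of delta and epsilon. In fish and frog embryos the eggs are stocked with messages for these proteins, which carry the first fast cleavages before the embryo transcribes its own genes, and PCNA is also the platform on which KMT5A is marked for destruction in S phase.

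Total counts per library ranged from 61886305 to 89061394. Of the 59 models, 57 entered the test. The exceptions were a model named RPA1 on chromosome 5, listed at 0 in all 12 libraries, and a model named CDC45 on chromosome 11, above 0 in 1 library only. Of the 57, 54 were above 0 in every library. A 402-base model named MCM7 was at 0 in 6 libraries, MCM8 in 3 and MCM9 in 5. In 2 day 3 libraries, counts on a model of type ribosomal RNA and on an unnamed model from a contig of the same scaffold made up 6.994% (KMT1 knockout pool 2) and 15.338% (KMT5A knockout pool 1) of the total, against 0.411% to 0.599% in the other 10. Day 3 results are therefore also given without those libraries. KMT5A, and SUV39H2 as the model taken for KMT1, served as a check of the labels. The labels name that second target only as KMT1. KMT5A in KMT5A knockout embryos was at 382 and 367 CPM at day 2 (counts scaled to a fixed library total after trimmed-mean normalization), against 373 and 389 in wildtype, and at 74.5 and 84.6 CPM at day 3, against 197 and 208. SUV39H2, the model named for the KMT1 family, was at 32.7 and 36.8 CPM in KMT1 knockout embryos at day 3, against 51.6 and 56.1 in wildtype, and at day 2 it was at 145 and 151 against 119.67 and 119.17. At day 2, KMT5A did not pass as lower in KMT5A knockout, nor SUV39H2 in KMT1 knockout. In KMT5A knockout SUV39H2 was at 159 and 174 CPM at day 2 and passed as higher (log2 fold change 0.48, adjusted p = 0.0134, edgeR). Of 12 gastrula patterning symbols, 6 were found, in 9 models, with a summed level of 619 to 672 CPM at day 2 and 1106 to 1213 at day 3, and SOX17 was at 0 at day 3. The largest day 2 part, a SOX2 model, was at 384 to 459 CPM at day 2 and 60.7 to 71.0 at day 3. The second SOX2 model was at 132 to 168 and 198 to 233. The largest day 3 part, a FOXA2 model, was at 5.27 to 8.05 CPM at day 2 and 495 to 573 at day 3. Of 8 oocyte and germ line symbols, 3 were found (ZAR1, ZAR1L and DDX4, in 4 models). Muscle markers were at 0 (3 found), liver markers reached 0.295 CPM (2 found), and no blood or sperm marker was found by name.

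The first comparison was of wildtype embryos between the days. As among all genes, replication genes changed in both directions, more of them lower than higher. Subunits of several complexes went opposite ways, while those of RPA all fell. Of the 57 tested models, 48 (84.2%) passed an adjusted p of 0.05 in edgeR's quasi-likelihood test, 13 higher and 35 lower at day 3. Over all 15615 genes tested, 66.1% passed, 29% higher and 37% lower. The median log2 fold change was -0.60 over the replication genes and -0.32 over all genes, and 14 of the called models lay above that all-gene median and 34 below it. The 35 and the 34 both include the 402-base model named MCM7. That model was at 0 in every day 3 library, and such a 0 may be a failed estimate. When libraries were scaled by their totals alone, the all-gene median became -0.63 and the split became 7 higher and 39 lower. Over all genes the split was then 3499 higher and 6313 lower. ORC1, MCM5, PCNA, LIG1, POLE and the longer POLA1 model kept a positive sign there but were no longer called. Together the 59 models took 1.01% and 1.02% of counts in the day 2 wildtype libraries and 0.504% and 0.502% in those of day 3. After normalization their sum went from 8995 and 9006 CPM to 5552 and 5513. GMNN alone went from 0.267% of counts in each to 0.0695% and 0.0702%. Over all groups the models took 1.01% to 1.02% at day 2 and 0.436% to 0.57% at day 3. The lowest share was in KMT5A knockout pool 1, the library richest in ribosomal RNA. In whole embryos, fewer cells holding a message and less of it per cell cannot be told apart. All values are relative to the other messages of a library, so a change in those cannot be told apart from either.

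**Figure D1:**
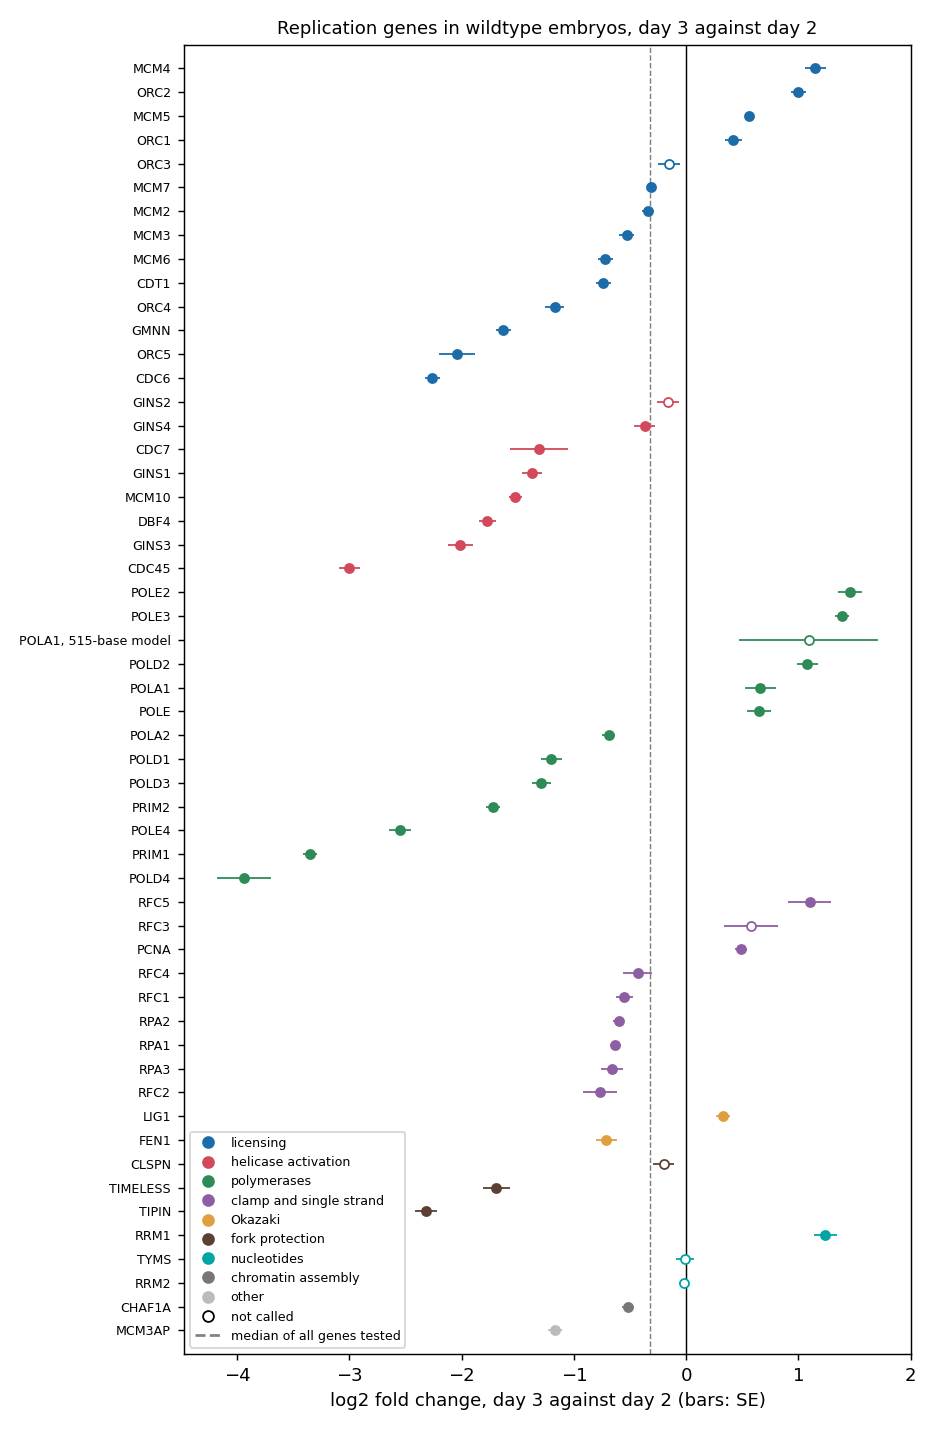
Log2 fold change of 54 replication gene models in wildtype embryos, day 3 against day 2, by role. Bars are standard errors, open circles are models that did not pass the test, and the dashed line is the median of all genes tested (-0.32). Licensing, polymerase and clamp genes lie on both sides of 0, from POLD4 at -3.94 to POLE2 at 1.46, while no helicase activation gene lies above it.

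The 4 largest rises were in POLE2, POLE3, RRM1 and MCM4. POLE2, the second subunit of the leading-strand polymerase epsilon (chromosome 33, 7085211 to 7096907), went from 6.25 and 5.65 CPM at day 2 to 16.0 and 16.9 at day 3, a log2 fold change of 1.46 (SE 0.11, adjusted p = 6.73e-06, edgeR). POLE3, a histone-fold subunit of the same polymerase (chromosome 59, 2784469 to 2795288), went from 42.8 and 42.6 to 112 and 112 CPM, or 1.39 (SE 0.06, adjusted p = 3.02e-07, edgeR). The pools of a day lay close together in both genes, and the days did not overlap. On the opposite strand, RPL12, which overlaps 12% of POLE3 exon bases, rose from 60.6 to 701 CPM (3.53), and MGAT2, which overlaps 34.9% of POLE2, rose from 9.36 to 12.7 CPM (0.44, adjusted p = 0.0269, edgeR). RRM1, the large subunit of ribonucleotide reductase, which makes the deoxynucleotides for DNA synthesis, went from 111 and 111 to 277 and 249 CPM, or 1.24 (SE 0.10, adjusted p = 1.05e-05, edgeR). MCM4, a helicase ring subunit on an unplaced scaffold, went from 51.7 and 47.8 to 110.0 and 111 CPM, or 1.15 (SE 0.094, adjusted p = 1.13e-05, edgeR). In each of these genes both day 3 pools were above both day 2 pools.

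Among models above 0 in every library compared, the 4 largest falls were in POLD4, PRIM1, CDC45 and POLE4. POLD4, the smallest subunit of the lagging-strand polymerase delta, fell from 32.9 and 32.0 CPM to 1.87 and 2.35, a log2 fold change of -3.94 (SE 0.24, adjusted p = 1.82e-06, edgeR). PRIM1, the catalytic subunit of primase that lays the RNA primers (chromosome 4, 8667281 to 8684346), fell from 127 and 124 CPM to 12.6 and 11.9, or -3.35 (SE 0.064, adjusted p = 1.03e-08, edgeR). In both genes the day 3 pools lay far below the day 2 pools. CDC45, the partner that completes the active helicase, fell from 158 and 163 CPM to 18.3 and 22.0, or -3.00 (SE 0.093, adjusted p = 5.54e-08, edgeR). POLE4, the other histone-fold subunit of polymerase epsilon (chromosome 44, 5057748 to 5062747), fell from 41.6 and 41.0 CPM to 6.97 and 7.15, or -2.55 (SE 0.095, adjusted p = 1.41e-07, edgeR). The counts of POLE3 and POLE4, which pair with each other in the enzyme, thus moved in opposite directions. The strand setting of the counting is not given, so reads of POLE3 and the overlapping RPL12 cannot be told apart.

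Levels of different genes were compared as CPM per kilobase of exon, which depends on how complete each gene model is. The model of POLE4 spans only 288 exon bases and that of RPA3 only 360. Among the origin recognition subunits, ORC4 stood highest at day 2, at 22.2 ± 1.24 CPM per kilobase (SD, n = 2), and ORC5 lowest at 8.05 ± 0.37. At day 3 ORC1 stood highest, at 25.3 ± 0.12, and ORC5 lowest at 1.95 ± 0.31. ORC1 (log2 0.42) and ORC2 (1.00) rose, ORC4 (-1.17) and ORC5 (-2.04) fell, and ORC3 (-0.15) did not pass. No model was named ORC6.

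Among the loaders, GMNN had the highest level of any replication gene at day 2, at 346 ± 1.91 CPM per kilobase. At day 3 it was at 112 ± 0.48, beside RPA2 (116 ± 4.09, both pools above those of GMNN), RPA3 (111 ± 7.03) and LIG1 (111 ± 0.10). Its counts alone were 0.255% to 0.267% of a day 2 library. CDC6 fell from 167 ± 1.93 to 34.9 ± 2.05 CPM per kilobase, and CDT1, the target of geminin, from 40.3 ± 2.24 to 24.2 ± 1.72. All of these falls passed the test, at log2 -1.63 for GMNN, -2.26 for CDC6 and -0.74 for CDT1.

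The 6 ring subunits, which sit in the helicase in equal number, had unequal message levels. At day 2 they ran from 8.57 ± 0.39 CPM per kilobase (MCM3) through 10.9 ± 0.61 (MCM4) to 84.4 ± 0.60 (MCM7). At day 3 they ran from 5.95 ± 0.11 (MCM3) to 68.1 ± 1.00 (MCM7), with MCM4 at 24.2 ± 0.11 and MCM5 at 60.4 ± 2.00. MCM4 (1.15) and MCM5 (0.56) rose, while MCM2 (-0.34), MCM3 (-0.53), MCM6 (-0.72) and MCM7 (-0.31) fell, MCM2 and MCM7 by about the all-gene median. The 402-base model also named MCM7, 3 exons on chromosome 21, held 0.21 CPM at most at day 2 and was at 0 in every day 3 library.

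No helicase activation gene rose. Of the 8 tested models, 7 fell: CDC45, GINS3 (log2 -2.01), DBF4 (-1.77), MCM10 (-1.52), GINS1 (-1.37), CDC7 (-1.31) and GINS4 (-0.37), and GINS2 (-0.16) did not pass. The 4 GINS proteins form one tetramer, yet GINS2 kept 33.9 ± 0.19 CPM per kilobase at day 3 while GINS1 was at 3.81 and 3.80 in its pools. In the exons of GINS3, 85.1% of bases overlap TRADD on the opposite strand, which fell by 3.50 on the log2 scale, and in DBF4, 72.9% overlap a FASTKD2-like model, which rose by 1.91. The strand setting of the counting is not given in the sources used here, so reads of such pairs cannot be told apart.

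**Figure D2:**
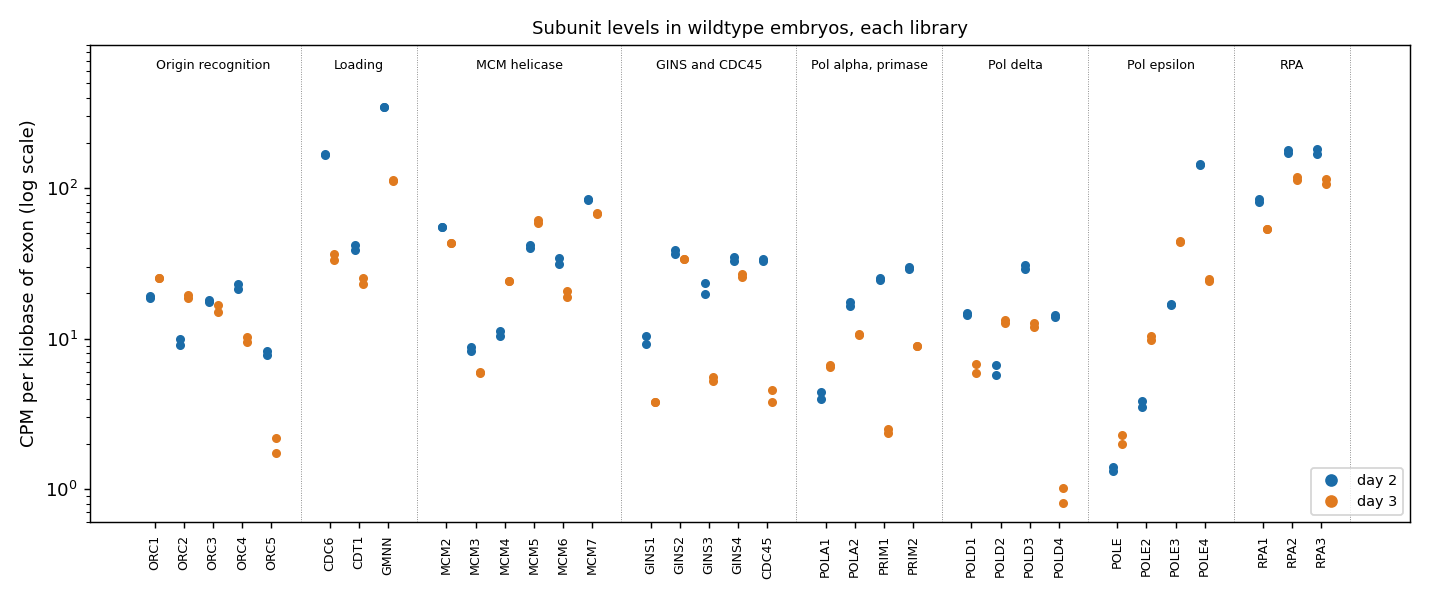
CPM per kilobase of exon, on a log axis, of 34 subunits in each wildtype library at day 2 (blue) and day 3 (orange), grouped by complex. Pools of a day sit close together, while subunits of one complex spread widely, as in polymerase epsilon at day 2, from POLE at 1.36 to POLE4 at 143. That spread depends on model length, 9514 exon bases in POLE and 288 in POLE4. Before division by length, their day 2 wildtype means were 12.9 and 41.3 CPM.

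Each polymerase held subunits of both directions. In polymerase alpha, the catalytic POLA1 rose (log2 0.66, longer model) while POLA2 (-0.69) and the primase subunits PRIM1 and PRIM2 (-1.72) fell. In polymerase delta, POLD2 rose (1.08) while the catalytic POLD1 (-1.20), POLD3 (-1.29) and POLD4 fell. In polymerase epsilon, the catalytic POLE (0.65), POLE2 and POLE3 rose and POLE4 fell. POLE was at 1.36 ± 0.06 CPM per kilobase at day 2 and 2.13 ± 0.21 at day 3, the lowest of its complex at both days.

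At the clamp, PCNA rose (log2 0.49) and so did RFC5 (1.10), a subunit of the clamp loader, while RFC1 (-0.55), RFC2 (-0.77) and RFC4 (-0.43) fell and RFC3 (0.58) did not pass. RFC5 shares 64.0% of its exon bases with WSB1 on the opposite strand, which fell. The RPA subunits, which coat single-stranded DNA, fell by similar amounts, RPA1 by 0.63, RPA2 by 0.60 and RPA3 by 0.66. The flap nuclease FEN1 (-0.71) fell and the ligase LIG1 (0.33), which seals Okazaki fragments, rose. Fork protection genes TIMELESS (-1.69) and TIPIN (-2.32) fell and CLSPN (-0.20) did not pass. Thymidylate synthase (TYMS, -0.01) and RRM2 (-0.02) were almost level, and the chromatin assembly subunit CHAF1A fell (-0.52). Summed over the list, the oocyte and germ line markers went from 989 and 956 CPM in the day 2 wildtype pools to 285 and 293 at day 3, alongside the falls above, and their part in the result was not tested.

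The second comparison set each knockout against wildtype at day 2. The same 9 models passed in each knockout, with the same sign: CDC7, RRM2 and MCM10 were higher, and MCM4, MCM5, MCM7, PCNA, RPA2 and POLE3 were lower. Both comparisons use the same wildtype pools, so these lists are not independent. The 9 models were 15.8% of those tested, against 9.97% of all genes in KMT1 knockout (3.18% higher, 6.79% lower) and 9.07% in KMT5A knockout (2.64% higher, 6.43% lower). The medians over the replication genes were -0.06 and -0.02, beside -0.02 and -0.03 over all genes.

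CDC7, the kinase that fires origins (chromosome 21, 7779906 to 7804405), had the largest change. It was at 9.27 and 8.31 CPM in wildtype, 20.1 and 18.9 in KMT1 knockout and 16.8 and 20.1 in KMT5A knockout. All 4 knockout pools lay above both wildtype pools, with log2 fold changes of 1.15 (SE 0.26, adjusted p = 0.0318, edgeR) and 1.07 (SE 0.26, adjusted p = 0.0445). Its partner DBF4 did not pass, at 0.00 and -0.01. A FASTKD2-like model on the opposite strand overlaps 72.9% of DBF4 exon bases. It was lower in both knockouts (-0.75 and -0.51, adjusted p = 0.00648 and 0.0349, edgeR).

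RRM2, the small subunit of ribonucleotide reductase (chromosome 27, 5802719 to 5820475), was at 153 and 151 CPM in wildtype, 193 and 199.85 in KMT1 knockout and 229 and 234 in KMT5A knockout. The groups did not overlap, and the fold changes were 0.37 (SE 0.046, adjusted p = 0.00241, edgeR) and 0.61 (SE 0.046, adjusted p = 0.000443). The large subunit RRM1 was at -0.14 and -0.35 and passed in neither. MCM10, a scaffold of helicase activation (chromosome 14, 6810444 to 6833620), was at 112 and 109 CPM in wildtype, 131 and 133 in KMT1 knockout and 136 and 128 in KMT5A knockout, a log2 difference of 0.26 in each (SE 0.054, adjusted p = 0.0224 and 0.0237, edgeR).

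Of the ring subunits, MCM4, MCM5 and MCM7 were lower and MCM2, MCM3 and MCM6 did not pass, at -0.14 to -0.03 in both knockouts. MCM4 was at 51.7 and 47.8 CPM in wildtype and at 35.3 to 39.4 in the 4 knockout pools, a difference of -0.41 in each (SE 0.093, adjusted p = 0.03 and 0.0305, edgeR). MCM5 was at 137 and 144 CPM in wildtype and at 117 to 122 in the knockout pools, or -0.25 and -0.22 (SE 0.04, adjusted p = 0.00719 and 0.0132, edgeR). MCM7 was at 398 and 402 CPM in wildtype, 340.4 and 353 in KMT1 knockout and 328 and 327 in KMT5A knockout, or -0.21 and -0.29 (SE 0.039, adjusted p = 0.0141 and 0.00367, edgeR). No knockout pool reached the lower wildtype pool in any of these genes.

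PCNA, the sliding clamp (chromosome 8, 11754234 to 11760086), was at 225 and 215 CPM in wildtype, 167 and 165 in KMT1 knockout and 168 and 175 in KMT5A knockout. The differences were -0.41 and -0.36 (SE 0.054, adjusted p = 0.00317 and 0.00604, edgeR), with no overlap. RPA2 was at 568 and 542 CPM in wildtype and at 469 to 486 in the knockout pools, or -0.24 and -0.19 (SE 0.047, adjusted p = 0.0168 and 0.0431, edgeR). The other RPA subunits had the same sign without passing, RPA1 at -0.16 and -0.18 and RPA3 at -0.12 and -0.30. POLE3 was at 42.8 and 42.6 CPM in wildtype and 34.1 to 38.0 in the knockout pools, or -0.24 in each (SE 0.059, adjusted p = 0.0408 and 0.0491, edgeR). RPL12, on the opposite strand, was also lower, by 0.66 and 0.65.

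The licensing factors CDC6 (0.02 and 0.03), CDT1 (-0.13 and -0.09) and GMNN (-0.12 and -0.11) did not pass at day 2, nor did any of the 5 origin recognition subunits. With any 1 of the 4 libraries of a comparison left out, 2 or 3 replication genes were called in KMT1 knockout and 3 in KMT5A knockout, and over all genes 641 to 779 and 617 to 833. RRM2 was called in 4 of those 4 fits in both knockouts, PCNA in 4 and in 2, MCM7 in 0 and in 4, MCM5 in 1 and in 1 and POLE3 in 1 and in 0, while CDC7, MCM10, MCM4 and RPA2 were called in 0 of 4 in both.

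**Figure D3:**
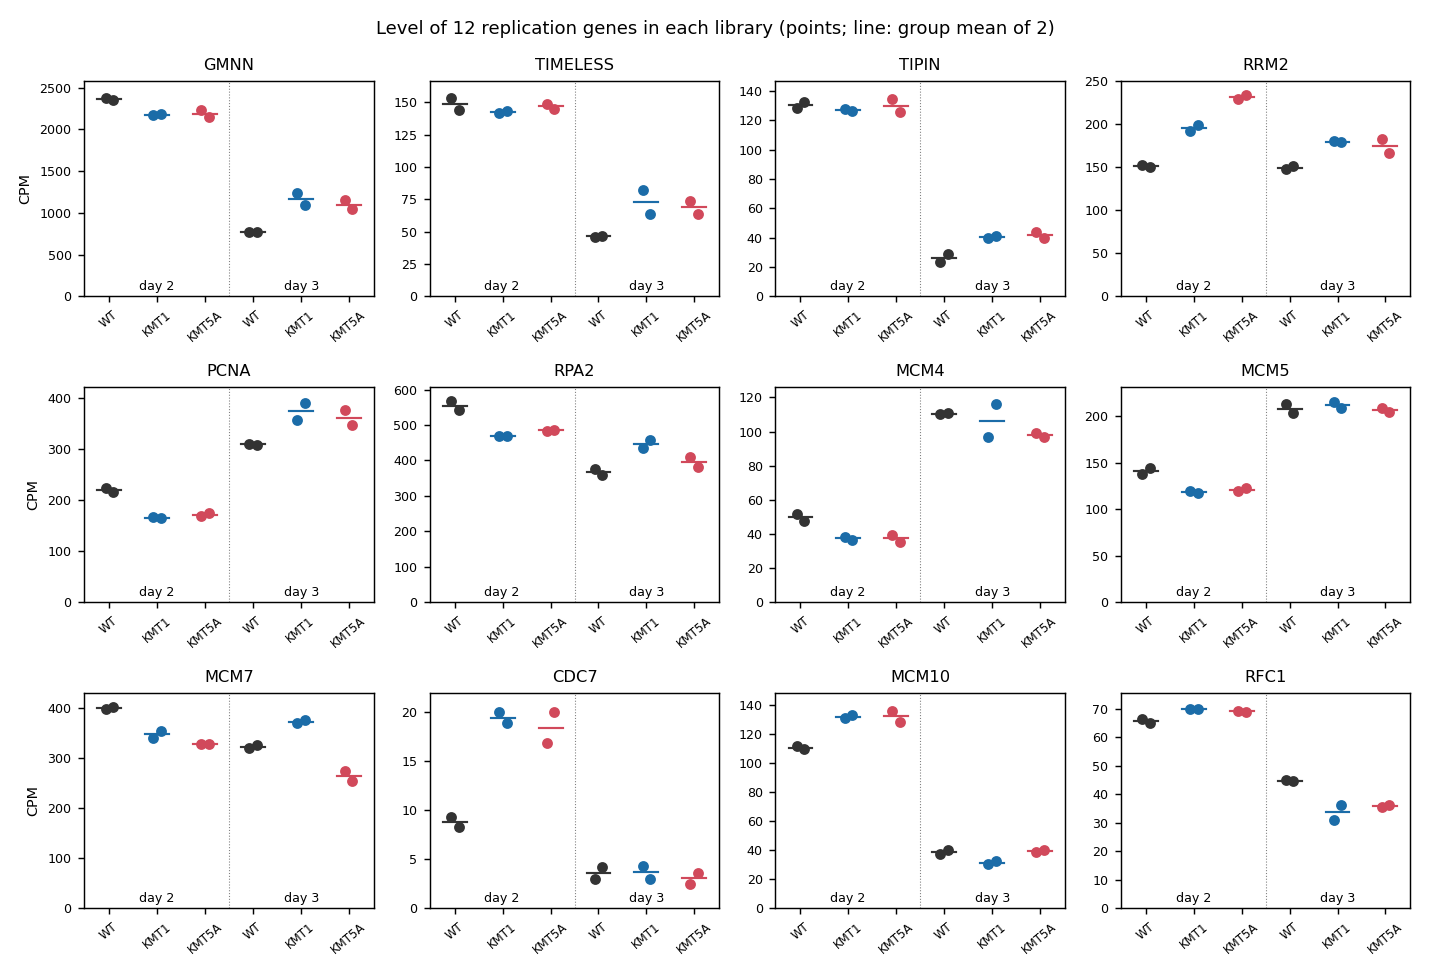
CPM of 12 replication genes in each library (points) with the mean of the 2 pools (line), at day 2 and day 3, for wildtype (black), KMT1 knockout (blue) and KMT5A knockout (red). Knockout pools of PCNA lie below wildtype at day 2 and above it at day 3, those of GMNN, TIMELESS and TIPIN lie above wildtype at day 3 only, and MCM7 at day 3 lies on opposite sides of wildtype in the 2 knockouts.

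At day 3, 11 replication genes passed in at least 1 knockout, and 5 of them (MCM7, MCM10, PCNA, RPA2 and RRM2) had also passed at day 2. In KMT1 knockout 10 models passed (17.5% of those tested, against 6.26% of all genes), 8 higher (4.67% of all genes) and 2 lower (1.59%). In KMT5A knockout 7 passed (12.3%, against 5.3% of all genes), 5 higher (3.33%) and 2 lower (1.97%). GMNN, TIMELESS, TIPIN and RRM2 were higher and RFC1 lower in both, and MCM7 passed in both with opposite signs. Both comparisons share their wildtype pools. Medians were 0.04 and 0.02 over the replication genes and 0.00 over all genes in both, but scaling by library totals alone moved the all-gene median in KMT5A knockout to -0.13, and there 2 replication genes were called, both lower.

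GMNN, the licensing inhibitor (chromosome 27, 5822272 to 5844211), was at 765 and 769.9 CPM in wildtype, 1244 and 1092 in KMT1 knockout and 1150.4 and 1048 in KMT5A knockout. All knockout pools lay above wildtype, by 0.61 (SE 0.067, adjusted p = 0.00249, edgeR) and 0.52 (SE 0.067, adjusted p = 0.00503) on the log2 scale. CDT1, which geminin binds, was at 0.24 (adjusted p = 0.0884) and 0.02 and did not pass. GMNN and RRM2 lie next to each other on chromosome 27, on the same strand.

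TIMELESS and TIPIN form the complex that travels with the fork and holds polymerase and helicase together. TIMELESS (chromosome 19, 12337959 to 12368467) was at 46.2 and 46.4 CPM in wildtype, 81.9 and 64.0 in KMT1 knockout and 74.0 and 63.5 in KMT5A knockout, or 0.66 (SE 0.11, adjusted p = 0.016, edgeR) and 0.57 (SE 0.11, adjusted p = 0.0301). TIPIN (chromosome 1, 32412183 to 32419109) was at 23.5 and 28.8 CPM in wildtype, 39.6 and 40.9 in KMT1 knockout and 43.9 and 39.7 in KMT5A knockout, or 0.62 (SE 0.095, adjusted p = 0.00984, edgeR) and 0.68 (SE 0.095, adjusted p = 0.00759). In both genes every knockout pool was above every wildtype pool, while CLSPN, the mediator that works with them, was at -0.27 and -0.25 and did not pass. DIS3L, which overlaps 55.1% of TIPIN exon bases on the opposite strand, was at -0.14 and 0.08 and did not pass.

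RRM2 was at 148 and 151 CPM in wildtype, 180.2 and 179.9 in KMT1 knockout and 183 and 166 in KMT5A knockout, or 0.27 (SE 0.046, adjusted p = 0.0156, edgeR) and 0.22 (SE 0.046, adjusted p = 0.0343). RFC1, the large subunit that loads the clamp (chromosome 16, 6948383 to 6986846), was at 44.9 and 44.8 CPM in wildtype, 30.9 and 36.4 in KMT1 knockout and 35.5 and 36.1 in KMT5A knockout, or -0.41 (SE 0.073, adjusted p = 0.017, edgeR) and -0.32 (SE 0.073, adjusted p = 0.0472). Neither gene had a knockout pool within the wildtype range. The RFC1 call in KMT5A knockout held under 2 of 7 alternatives, with log2 from -0.48 to -0.30. RRM2 was called higher in both knockouts at both days, but its day 3 call in KMT5A knockout held under 2 of 7 alternatives, with log2 from 0.05 to 0.25, and in 1 of 4 fits without 1 library.

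RPA2 in KMT1 knockout was at 436 and 459 CPM, against 376 and 358 in wildtype (0.29, SE 0.047, adjusted p = 0.0136, edgeR), and in KMT5A knockout at 411 and 382 (0.11, adjusted p = 0.245). PCNA was at 311 and 309 CPM in wildtype, 358 and 391 in KMT1 knockout (0.27, SE 0.054, adjusted p = 0.0256, edgeR) and 376 and 348 in KMT5A knockout (0.22, adjusted p = 0.0593). RPA1 passed in KMT1 knockout at 0.24 and not in KMT5A knockout at 0.04. DBF4 passed in KMT5A knockout, at 61.9 and 54.1 CPM against 45.4 and 46.0 in wildtype (0.34, SE 0.07, adjusted p = 0.0325, edgeR), and was at 0.15 in KMT1 knockout. The FASTKD2-like model opposite DBF4 was at -0.01 in KMT5A knockout. None of the 13 polymerase models passed in either knockout. POLD4 had the largest difference among them, at 1.87 and 2.35 CPM in wildtype, 3.16 and 3.20 in KMT1 knockout and 4.76 and 2.94 in KMT5A knockout (0.59, adjusted p = 0.167, and 0.86, adjusted p = 0.066, edgeR).

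Summed oocyte and germ line markers, nearly all of them ZAR1, were at 285 and 293 CPM in day 3 wildtype, 419 and 366 in KMT1 knockout and 414 and 363 in KMT5A knockout, so that they too were higher in every knockout pool, and their part in the result was not tested. ZAR1L was at 0 in 3 of the 6 day 3 libraries. At day 2 the same sum was 861 to 893 in the knockout pools, below both wildtype pools. Without KMT1 knockout pool 2, which is rich in ribosomal RNA, 13 replication genes were called in KMT1 knockout (1536 of 15939 genes in all), and without pool 1 there were 7 (947 of 15919). Without KMT5A knockout pool 1, which is richer still, 4 were called in KMT5A knockout (614 of 15949), and without pool 2 there were 11 (1789 of 15943). Without wildtype pool 1 or 2 the counts were 4 and 2 in KMT1 knockout (604 and 564 genes in all) and 3 and 2 in KMT5A knockout (491 and 534). GMNN and TIPIN in KMT1 knockout, and TIPIN and MCM7 in KMT5A knockout, were called in 4 of those 4 fits. GMNN was called in 3 in KMT5A knockout, RPA2 and MCM10 in 3 and PCNA in 2 in KMT1 knockout, TIMELESS and RFC1 in 2 and in 1, RRM2 in 1 and in 1, and MCM7 and RPA1 in KMT1 knockout and DBF4 in KMT5A knockout in 1. With the day 3 groups of a comparison fitted alone, 0 replication genes passed in either knockout, where 1 of 13214 genes passed in all in KMT1 knockout and 14 of 12985 in KMT5A knockout.

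**Figure D4:**
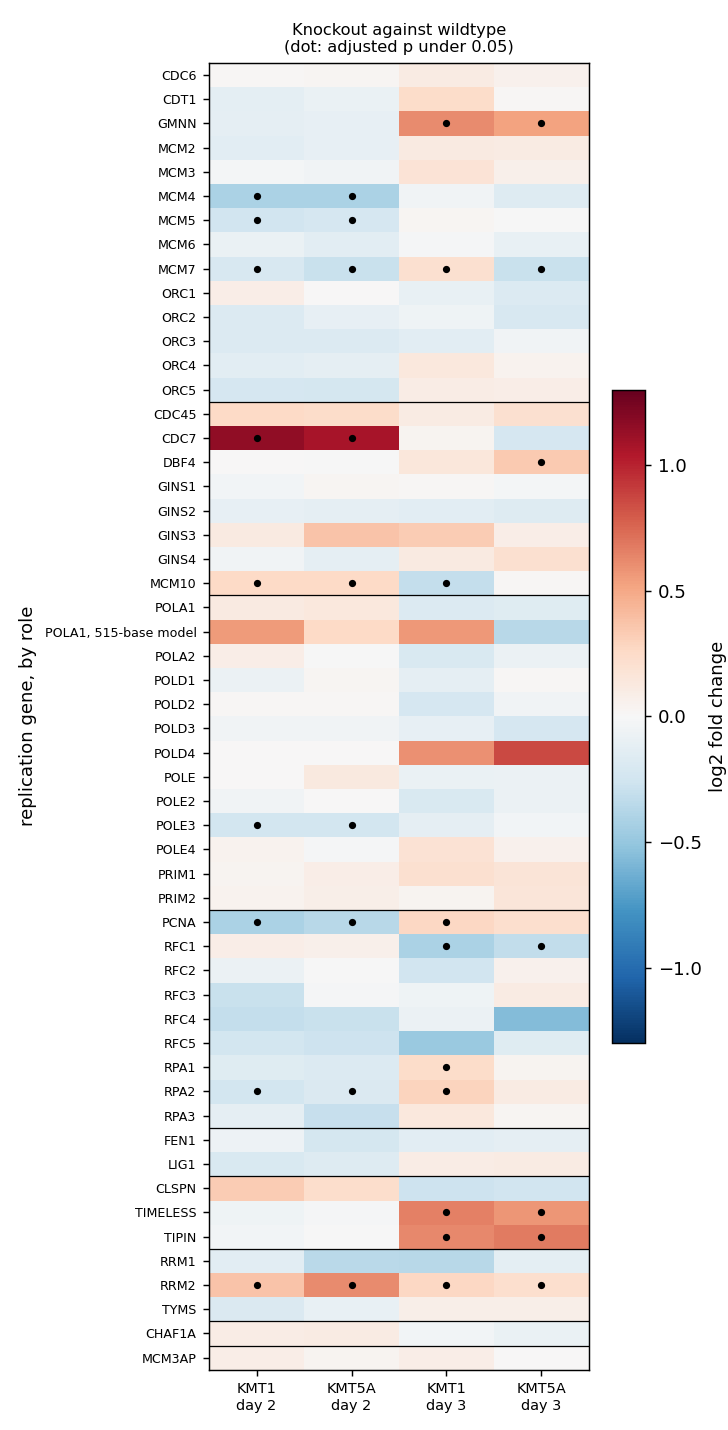
Log2 fold change of 54 replication gene models in each knockout against wildtype at day 2 and day 3 (red higher, blue lower), in blocks by role. Dots are adjusted p-values under 0.05, of which the 2 day 2 columns hold 9 each on the same genes and the day 3 columns 10 and 7.

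The knockouts were then set against each other. At day 2, 0 of the 57 replication genes passed in edgeR (0.147% of all genes did, 0.0128% higher and 0.134% lower), 2 had an unadjusted p under 0.05, and DESeq2 called 1. The difference with the smallest p was RRM2, 0.24 higher in KMT5A knockout (95% interval 0.13 to 0.35, adjusted p = 0.422, edgeR).

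At day 3, 2 passed (3.51%, against 1.47% of all genes), MCM7 lower (1.1% of all genes) and MCM10 higher (0.371%) in KMT5A knockout. MCM7 (chromosome 21, 3018251 to 3033646) was at 319 and 326 CPM in wildtype, 369.9 and 375 in KMT1 knockout and 273 and 254 in KMT5A knockout. The 3 groups did not overlap. The difference between the knockouts was -0.50 (SE 0.039, adjusted p = 0.000629, edgeR), and against wildtype MCM7 was 0.21 higher in KMT1 knockout (adjusted p = 0.0212) and 0.29 lower in KMT5A knockout (adjusted p = 0.00611). MCM10 was at 37.5 and 39.7 CPM in wildtype, 30.1 and 32.1 in KMT1 knockout and 38.5 and 39.9 in KMT5A knockout. It was 0.33 higher in KMT5A than in KMT1 knockout (SE 0.054, adjusted p = 0.0265, edgeR) and passed against wildtype in KMT1 knockout only (-0.31, SE 0.054, adjusted p = 0.0161).

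Each of these genes shares a chromosome with KMT5A or with SUV39H2, the model taken for KMT1. The labels do not name SUV39H2 as the target. MCM7 shares chromosome 21 with KMT5A (11963808 to 11985404), and of the 251 genes of that chromosome tested in KMT5A knockout at day 3, 78 passed (31.1%), 74 of them lower, with a median of -0.45. In KMT1 knockout 10 of them passed and the median was 0.00. RFC4, a clamp loader subunit on chromosome 21, was at 27.1 and 20.5 CPM in KMT5A knockout against 34.2 and 36.2 in wildtype (-0.56, adjusted p = 0.0577, edgeR), while CDC7 (-0.22) and GINS4 (0.21) on the same chromosome did not pass. MCM10 shares chromosome 14 with SUV39H2 (8620044 to 8633357), where 41 of 170 genes (24.1%) passed in KMT1 knockout at day 3, 32 of them lower, with a median of -0.11, against 13 in KMT5A knockout. At day 2, when MCM7 and MCM10 had also passed, 37 genes of chromosome 21 passed in KMT5A knockout (14.7%, 33 of them lower, median -0.10) and 22 in KMT1 knockout (8.76%), and 34 genes of chromosome 14 passed in KMT1 knockout (20%, 19 of them lower, median -0.01) and 24 in KMT5A knockout (14.1%). MCM10 was higher at day 2, by 0.26 in each knockout. At day 3, 171 of the 251 genes of chromosome 21 were negative in KMT5A knockout, and 97 of the 170 of chromosome 14 in KMT1 knockout. Whether MCM7 and MCM10 moved with their chromosomes was not tested.

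Whether a knockout effect differed between the days was tested as the effect at day 3 minus that at day 2. The tests of the 2 knockouts use the same wildtype pools, so their lists are not independent. For KMT1 knockout 12 models passed (21.1%, against 10.2% of all genes), 9 with the effect moving up (7.3% of all genes) and 3 moving down (2.91%). For KMT5A knockout 5 passed (8.77%, against 9.65% of all genes), 4 up (6.47%) and 1 down (3.18%), a share near the background. PCNA had passed as lower at day 2 in both knockouts and passed as higher at day 3 in KMT1 knockout, and its day difference was 0.68 in KMT1 knockout (SE 0.076, adjusted p = 0.00281, edgeR) and 0.58 in KMT5A knockout (SE 0.076, adjusted p = 0.00434). GMNN moved by 0.73 (SE 0.094, adjusted p = 0.00424, edgeR) and 0.63 (SE 0.094, adjusted p = 0.0071), and TIPIN by 0.66 (SE 0.13, adjusted p = 0.0203, edgeR) and 0.68 (SE 0.13, adjusted p = 0.0192). TIMELESS passed for KMT1 knockout at 0.72 (SE 0.16, adjusted p = 0.0297, edgeR) and was at 0.59 for KMT5A knockout (adjusted p = 0.0637).

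The effect moved down for 3 genes in KMT1 knockout, CLSPN at -0.60 (SE 0.13, adjusted p = 0.0273, edgeR), MCM10 at -0.57 (SE 0.076, adjusted p = 0.0047) and RFC1 at -0.50 (SE 0.10, adjusted p = 0.0214). CLSPN had passed at neither day. MCM10 turned from higher at day 2 to lower at day 3. In KMT5A knockout RPA2 moved up by 0.31 (SE 0.067, adjusted p = 0.0288, edgeR) and RRM2 moved down by 0.39 (SE 0.066, adjusted p = 0.0112), since its rise was 0.61 at day 2 and 0.22 at day 3. The rise of CDC7 at day 2, 1.15 and 1.07, stood beside 0.04 and -0.22 at day 3, and the differences of -1.10 and -1.29 did not pass (adjusted p = 0.109 and 0.0746, edgeR).

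Genes that act around the machinery were counted from 7 further lists, and the shares of all genes called stand beside them: 9.97% in KMT1 and 9.07% in KMT5A knockout at day 2, and 6.26% and 5.3% at day 3. Among 22 tested models of S phase control, 7 passed at day 2 in KMT1 knockout and 4 in KMT5A knockout, and 6 and 4 at day 3. A model of CCNE1, the cyclin that drives S phase entry, was higher in all 4 comparisons, while the second CCNE1 model passed in none of them. The first went from 211 CPM in wildtype to 322 and 318 at day 2 (0.61 and 0.59, adjusted p = 0.000342 and 0.000431, edgeR), and was higher by 0.39 and 0.23 at day 3. CDKN1B, an inhibitor of cyclin-dependent kinases, was also higher in all 4, by 0.66 and 0.90 at day 2 and by 1.48 and 1.80 at day 3. Its day 2 level was low, 1.78 ± 0.19 CPM in wildtype, against 27.85 ± 0.14 in day 3 wildtype. The day 2 knockouts were at 2.83 ± 0.72 (KMT1, adjusted p = 0.0483, edgeR) and 3.32 ± 0.27 (KMT5A, adjusted p = 0.0155). Of the CCNA2 models, both called in KMT1 knockout, one was at 1.47 and the other at -0.29 at day 2. The transcription factor E2F3 was lower at day 2 (-0.27 and -0.31) and the cyclin CCND2, in the more abundant of its models (96.8 ± 1.47 CPM in day 3 wildtype), was lower at day 3 (-0.36 and -0.37). In wildtype, 9 of the 22 rose and 9 fell between the days, where 29% of all genes rose and 37% fell.

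Of 11 origin firing regulators, 1 passed at day 2 in each knockout, a share near that of all genes. It was a model of the acetyltransferase KAT7, lower (-0.50 and -0.60) and at 6.94 CPM in wildtype. The more abundant KAT7 model, at 278 CPM in day 2 wildtype, passed in neither knockout. At day 3, 1 passed in KMT1 knockout, MCMBP, which binds MCM rings, higher (0.41), and 0 in KMT5A knockout. Of 11 checkpoint models, 2 passed in each knockout at day 2 and 0 at day 3. HUS1 of the checkpoint clamp was higher (0.94 and 0.84) and a model of the kinase WEE1 was lower (-0.47 and -0.40). The second WEE1 model passed in neither knockout. In day 2 wildtype it was at 21.89 CPM, against 18.95 for the first. The list around the CDT2 ubiquitin ligase had 9 models and also held FBXO5, FBXW7 and KMT5B, which are not part of that ligase. Of these 9, 2 passed in KMT5A knockout at day 3, KMT5A itself and the ligase subunit RBX1 (0.32). In the other 3 comparisons 0 passed. DTL, the CDT2 protein that recognises targets bound to PCNA, fell from 307 ± 3.16 to 34.5 ± 1.19 CPM between the days in wildtype (-3.16, adjusted p = 9.64e-09, edgeR).

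Of 26 models of clamp partners and fork repair, 1 passed in KMT1 knockout and 0 in KMT5A knockout at day 2, and 2 and 1 at day 3. DNA2, a nuclease of Okazaki fragments, rose at day 3 from 65.7 ± 0.62 CPM to 131 ± 0.56 in KMT1 knockout and 162 ± 28.7 in KMT5A knockout (1.00 and 1.31, adjusted p = 0.0024 and 0.000524, edgeR). Of 11 histone supply models, 2 and 3 passed at day 2 and 3 and 1 at day 3, and of 19 nucleotide supply models 3 and 2 at day 2 and 3 and 1 at day 3. CAD and DCK, enzymes of pyrimidine supply, were lower at day 2 (-0.65 and -0.42, and -0.33 and -0.32), opposite to RRM2. SAMHD1, which breaks down deoxynucleotides, was higher at day 3 (0.67 and 0.58). Between the days in wildtype, 29% of all genes rose and 37% fell. Of the 11 origin firing regulators, 2 rose and 6 fell. In the list around the CDT2 ligase, 3 of 9 models rose (FBXW7, FBXO5 and a KMT5B model) and 4 fell. The rises and falls were 3 and 4 of the 11 checkpoint models and 6 and 14 of the 26 clamp partners. They were 5 and 6 of the 11 histone supply models and 9 and 5 of the 19 nucleotide supply models.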

How the data were processed

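The values were estimated counts per gene and library, whole numbers in the table deposited by the authors, and the labels call them raw counts. Per the submitters' processing notes, the tools were HISAT2 2.2.1, StringTie 2.2.3 and DESeq2 1.42.1, whose roles and order are not given there, and the genome build and strand setting are not given in the sources used here. Coordinates are those of the deposited annotation. In each library only 8 to 29 genes had a value from 1 to 3, so an exact 0 may be a failed estimate and no fold is given against it. Precision was set by 2 pools per group.

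Counts were tested in R 4.3.3 with edgeR 4.0.16 (TMM scaling, default low-count filter, quasi-likelihood F test, 1 model of 6 groups with 6 residual and 1.69 prior degrees of freedom), and p-values were adjusted by Benjamini-Hochberg over all 15615 genes tested. SE was derived from the F statistic. The alternatives were DESeq2 1.42.0, other scalings, no filter, leaving out each library, a replicate block, a ribosomal RNA term and fitting only the compared groups. Figures were drawn in Python 3.11.15 with matplotlib 3.10.9. Values in each library are given for members called in a comparison, or for the 4 largest rises and 4 largest falls where more than 8 were called, among those above 0 in every library compared. The members and the further lists were chosen with earlier results of these data known.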

Additional observations from a re-analysis of the deposited data

Results flagged for a closer look

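These replication genes had a knockout effect that differed between day 2 and day 3 by the test of the difference itself (edgeR, adjusted p under 0.05), and the values are the log2 effect at day 3 minus that at day 2. In KMT1 knockout the effect moved up for GMNN (0.73), TIMELESS (0.72), PCNA (0.68), TIPIN (0.66), RPA2 (0.53), MCM7 (0.41), RPA1 (0.41), CDT1 (0.37) and MCM5 (0.27), and down for RFC1 (-0.50), MCM10 (-0.57) and CLSPN (-0.60). In KMT5A knockout it moved up for TIPIN (0.68), GMNN (0.63), PCNA (0.58) and RPA2 (0.31), and down for RRM2 (-0.39). The lists of the 2 knockouts share their wildtype pools and are not independent. PCNA was called in 8 of 8 fits that left out 1 library in both knockouts, GMNN in 8 of 8 in KMT1 knockout and 7 of 8 in KMT5A knockout, and CDT1 in 1 of 8.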

How the results depend on the processing

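No called fold change turned its sign under any alternative tried: of 1126 values for called genes, 874 stayed past the threshold and 252 did not. The wildtype count between days stayed at 46 to 49 of 57 throughout. Most of the 252 lost values belonged to comparisons with a knockout, so the pooled tally overstates how well the knockout calls held. Counts of called replication genes moved by more than 1.5 times in the cases below, apart from 1. The RLE count in KMT5A knockout at day 2 moved by 1.5 times. The cause was not tested. Calls over all genes moved too. In KMT1 knockout at day 2, the main 1557 of 15615 became 1350 with RLE scaling and 354 with library totals. With the compared groups alone they were 2522 of 14965. In KMT5A knockout at day 2, the main 1417 became 1232 with RLE scaling, 328 with library totals and 2405 of 14830 with DESeq2. KMT1 knockout at day 2 (9 called) gave 5 with RLE scaling (3 higher, 2 lower), 1 with library totals, 14 with the compared groups alone and 2 to 3 without 1 library. KMT5A knockout at day 2 (9) gave 1 with library totals, 14 with DESeq2, 3 without any 1 library and, with RLE scaling, 6 (3 higher, 3 lower). KMT1 knockout at day 3 (10) gave 0 with library totals, 16 with DESeq2, 0 with the compared groups alone and 2 to 13 without 1 library. KMT5A knockout at day 3 (7) gave 2, 12, 0 and 2 to 11. KMT5A against KMT1 knockout gave 1 with DESeq2 at day 2 (0), and at day 3 (2) it gave 1 with library totals, 4 with DESeq2, 0 with the groups alone, 4 with the ribosomal RNA term and 2 to 4 without 1 library. The day difference of KMT1 knockout (12) gave 0 with library totals and 5 to 13 without 1 library, and that of KMT5A knockout (5) gave 0, 14 with DESeq2, 10 with the ribosomal RNA term and 3 to 13. With the ribosomal RNA term, day 3 gave 10 in KMT1 and 9 in KMT5A knockout, beside 1450 and 1100 of all genes. Day 3 calls over all genes were 977 and 828 in the main fit, and 252 and 291 with library totals. DESeq2 called 2678 and 2479 of 15453. KMT5A against KMT1 knockout at day 2 gave 23 over all genes, and 103 of 16388 with DESeq2. At day 3 the main 229 became 159 with library totals and 1134 of 15453 with DESeq2. They were 1 of 13014 with the groups alone and 653 with the ribosomal RNA term. Over all genes, the day difference of KMT1 knockout went from 1595 to 217 with library totals. That of KMT5A knockout went from 1507 to 264 with library totals, 3190 of 14830 with DESeq2 and 1797 with the ribosomal RNA term. Replicate numbers did not pair the samples (15 group pairs, correlations of deviations -0.136 to 0.048). Over all genes, the replicate block called 1371 and 1241 at day 2, 824 and 713 at day 3 and 10032 between days. It called 1441 and 1372 in the day differences, and 14 and 187 between the knockouts. Among the replication genes, the block called 6 and 6 at day 2, 10 and 5 at day 3 and 47 between days. It called 11 and 6 in the day differences, and 0 and 1 between the knockouts. A crossed pairing of the day 3 knockouts, chosen after seeing the data, also gave 1. Where 1 library was left out, the lone pool was assumed to vary like the other groups.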
